A study of Mus musculus with 4 samples.

Results

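The immunoglobulin loci of the mouse are the heavy chain locus Igh on chromosome 12, the kappa light chain locus Igk on chromosome 6 and the lambda light chain locus Igl on chromosome 16. Their DNA methylation was measured here in T cells, which do not make antibody. The members were all 1-kb windows at chr12:113250000-116010000, chr6:67550000-70730000 and chr16:19020000-19270000 (build mm10) with at least 3 cytosine positions of at least 5 reads in both libraries of a comparison. There were 2760 such windows, 1831 in Igh, 766 in Igk and 163 in Igl, of 1778103 in the whole table. The bounds and this minimum of reads chose them. No methylation level entered that rule, which was set with earlier results of these data known.

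Whole-genome bisulfite sequencing, which reads methylated cytosines as C and unmethylated ones as T, was done on genomic DNA of T cells from the spleens of NOD mice, which become diabetic through autoimmunity. Mice received PBS, or OX40L, which binds OX40 on T cells, together with Jagged-1 (JAG1), which binds Notch, weekly for 3 weeks from 6 weeks of age. CD4+CD25- effector cells (Teff) and CD4+CD25hi regulatory cells (Treg) were sorted 1 week after the last dose, and the labelled age of the mice was 10 weeks. Both cell types of mice given PBS and both of mice given the proteins (labelled OX40L-JAG1) make 4 groups with 1 library each. Below, treated cells are those of mice given OX40L and Jagged-1. There are no replicates, so each test below compares 2 libraries and not the conditions, and the number of animals behind a library is not given in the sources used here. Intervals are 95% and cover counting error only. They take the reads at each position as independent, but a read is counted at each position it covers and duplicate reads may remain. They may therefore be too narrow.

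An antibody gene is assembled in developing B cells. The RAG recombinase joins a variable (V) segment to a joining (J) segment, with a diversity (D) segment between them in Igh, next to a constant (C) region. An intronic enhancer lies between the J segments and the C region of both Igh and Igk. V segments of Igh and Igk are not normally joined in the T lineage, whereas D to J joining of Igh can occur in thymocytes. Methylation of a locus is commonly high where it is silent, and low at active enhancers and promoters. The RefSeq table places 120 V genes and 63 V pseudogenes, 10 D genes and 10 D pseudogenes, 4 J and 8 C genes in Igh. Igk has 102 V genes, 60 V pseudogenes, 5 J and 1 C gene, and Igl has 3 V, 3 J and 3 C genes with 2 J and 1 C pseudogenes.

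RefSeq promoters (build GRCm38.p6, 250 bases before to 50 after a start) matched 13 genes inside the bounds, none of them a V, D, J or C segment. The 3 below are shown because the positions in them stand for the kinds of sites found in these loci. They belong to the gene models Gm40899 (chr12:114764158-114764457, plus strand), Gm38573 (chr6:67721387-67721686, minus strand) and Gm46962 (chr6:70220655-70220954, minus strand). Each runs 5′ to 3′ and capitals mark the CG sites.
Gm40899: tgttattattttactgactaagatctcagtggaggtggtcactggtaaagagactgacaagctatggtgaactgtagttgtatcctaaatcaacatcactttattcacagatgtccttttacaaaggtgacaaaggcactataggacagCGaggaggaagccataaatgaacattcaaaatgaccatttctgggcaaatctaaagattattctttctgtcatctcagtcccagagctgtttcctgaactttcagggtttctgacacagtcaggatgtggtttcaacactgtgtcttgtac
Gm38573: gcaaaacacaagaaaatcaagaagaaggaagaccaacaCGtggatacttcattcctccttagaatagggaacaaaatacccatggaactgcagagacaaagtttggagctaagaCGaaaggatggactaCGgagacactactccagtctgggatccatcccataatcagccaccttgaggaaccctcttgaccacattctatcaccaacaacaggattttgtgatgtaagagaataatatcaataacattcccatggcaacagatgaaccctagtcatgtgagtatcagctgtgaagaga
Gm46962: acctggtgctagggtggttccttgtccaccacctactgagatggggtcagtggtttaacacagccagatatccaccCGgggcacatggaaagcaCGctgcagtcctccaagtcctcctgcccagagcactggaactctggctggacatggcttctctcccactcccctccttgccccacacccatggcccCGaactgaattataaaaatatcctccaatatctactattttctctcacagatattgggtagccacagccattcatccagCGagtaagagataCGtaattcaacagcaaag

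The Gm40899 promoter lies at the heavy chain V gene Ighv1-23 and has 1 CG, at base 150. It was methylated in 1 of 18 reads in PBS Teff, 4 of 15 in PBS Treg, 2 of 21 in treated Teff and 8 of 22 in treated Treg. The share was low in both Teff libraries (5.56% and 9.52%) and higher in both Treg libraries (26.7% and 36.4%). It rests on 1 CG with 15 to 22 reads per library, in a promoter picked after its values were seen. At shared positions of its 1-kb window, Treg minus Teff was 2.85 points in the PBS pair (-11.1 to 16.9). In the treated pair it was 18.5 points (5.73 to 31.2), and the window was called in neither pair. The 3 CGs of Gm38573, in the kappa locus, gave 3 different values in the same stretch of DNA. At base 130 no read was methylated on either strand: 0 of 7 and 0 of 7 in PBS Teff, 0 of 9 on the minus strand in PBS Treg, 0 of 11 and 0 of 14 in treated Teff, and 0 of 8 on the minus strand in treated Treg. At such a site a base that differs between NOD mice and the reference cannot be told from an unmethylated cytosine. On the minus strand, the CG at base 115 was methylated in 7 of 8 reads in PBS Teff, 9 of 9 in PBS Treg, 13 of 15 in treated Teff and 8 of 8 in treated Treg. The CG at base 39 lay between, with 8 of 14, 7 of 11, 8 of 16 and 10 of 13 reads in the same order and on the same strand. Gm46962, with 5 CGs, was mostly methylated: 83.95% of 81 reads, 91.8% of 49, 86.9% of 61 and 81.0% of 42 reads were methylated. Its CG at base 95 was lower, with 7 of 10, 4 of 7, 1 of 6 and 1 of 6 reads on the plus strand. The recombination heptamer CACAGTG, searched on both strands, occurred in the Gm40899 promoter and in 6.81% of all 32851 RefSeq promoters. The octamer ATGCAAAT, known from immunoglobulin promoters, and the E-box CAGGTG occurred in none of the 3. They were found in 1.74% and 20.2% of all promoters.

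Levels over whole loci were taken where all 4 libraries had 5 or more reads at a position: 5472 in Igh, 2328 in Igk and 495 in Igl. The median reads at such a position of the 3 loci were 15, 11, 12 and 9 in PBS Teff, PBS Treg, treated Teff and treated Treg, close to 14, 10, 11 and 9 over the whole table. Igh was highly methylated, with a level of 90.2% for PBS Teff, 89.7% for PBS Treg, 85.5% in treated Teff and 86.6% in treated Treg. Igl gave 86.3%, 85.2%, 81.4% and 82.1% in the same order. Igk was lowest, at 67.6%, 67.4%, 62.8% and 64.2%. The whole table stood at 85.2%, 84.9%, 81.6% and 82.2%, and the T cell receptor loci, which T cells do rearrange, at 81.5%, 82.4%, 78.6% and 79.9%. In every library the order was Igh, Igl, Igk, and Igh lay above the whole table and Igk below it.

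The low level of Igk came with a group of positions that were almost free of methylation in every library. Of its 2328 positions, 403 (17.3%) were at 10% or less in all 4 libraries. That share was 0.292% in Igh (16 positions), 0 of 495 in Igl, 5.63% in the T cell receptor loci and 2.77% over the whole table. With these positions left out, Igk stood at 81.1% in PBS Teff, 80.7% in PBS Treg, 75.2% in treated Teff and 76.8% in treated Treg. The whole table then stood at 87.3%, 87.0%, 83.6% and 84.2%, so Igk stayed below it, by less. At 340 of the 403 positions no methylated read was seen at all, and the 403 together had 110 methylated among 26917 reads. No methylated read was seen at 102672 of the 132831 low positions of the whole table. Of the 246 in Igk with other positions within 250 bases, 91 (37.0%) had neighbours at 80% or more and 34 (13.8%) at 20% or less. For low positions of the whole table these shares were 39.2% and 35.1%. The share with highly methylated neighbours was thus not particular to Igk, while the share with low neighbours was smaller there. All 42 low Igk positions whose partner cytosine on the other strand was read in all 4 libraries had a low partner. The share was 88.3% for such positions over the whole table. A base that differs between NOD mice and the reference and an unmethylated cytosine cannot be told apart in this table.

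**Figure D1:**
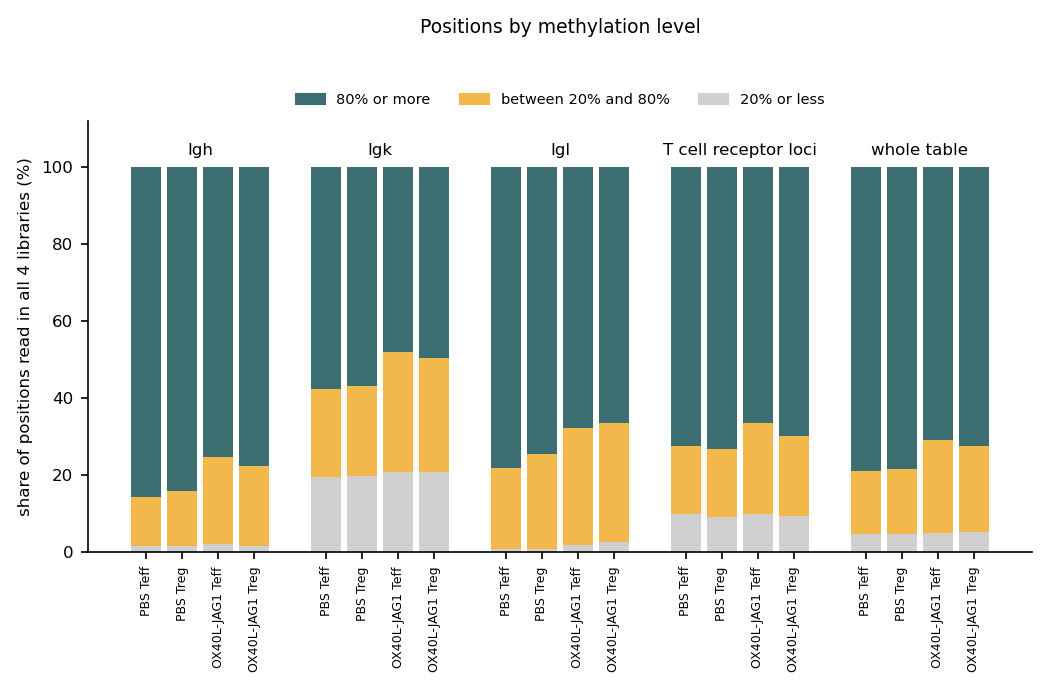
Share of positions (percent, y axis) at a methylation level of 80% or more, between, and 20% or less, per library (bars), in Igh, Igk, Igl, the T cell receptor loci and the whole table. In PBS Teff, 19.5% of Igk positions were at 20% or less against 1.55% in Igh, and 57.9% were at 80% or more against 85.8% in Igh.

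Single positions show how sharply such sites stood out. The position 1822 bases from the kappa segment Igkv3-1 (chr6:70705999) was methylated in 2 of 176 reads in PBS Teff, 0 of 108 in PBS Treg, 3 of 136 in treated Teff and 0 of 120 in treated Treg. Positions within 250 bases of it stood at 87.6% of 217 reads pooled over the libraries. Near the V gene Igkv12-67, chr6:69326097 had 0 of 98, 0 of 44, 0 of 70 and 0 of 52 methylated reads, beside neighbours at 88.2% of 2224 reads. A count of 0 of 98 allows a level of up to 3.77% (Wilson interval).

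Along chromosomes, the kappa locus was among the regions of lowest methylation as long as its low positions were counted. Of 2571 bins of 1 Mb with at least 200 positions, 4 had a lower level in PBS Teff than the Igk bin at 68 to 69 Mb of chromosome 6, which stood at 63.7%. No bin had a larger share of positions low in all libraries than this one, 26.3%. The next Igk bin stood at 65.4%, with 7 bins lower. Without the positions low in all libraries, left out in every bin, these Igk bins stood at 84.6% and 80.4%, with 292 and 46 bins lower. The Igh bins starting at 114 and 115 Mb of chromosome 12 were at the other end, at 91.1% and 90.6%, with 2508 and 2474 bins lower.

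**Figure D2:**
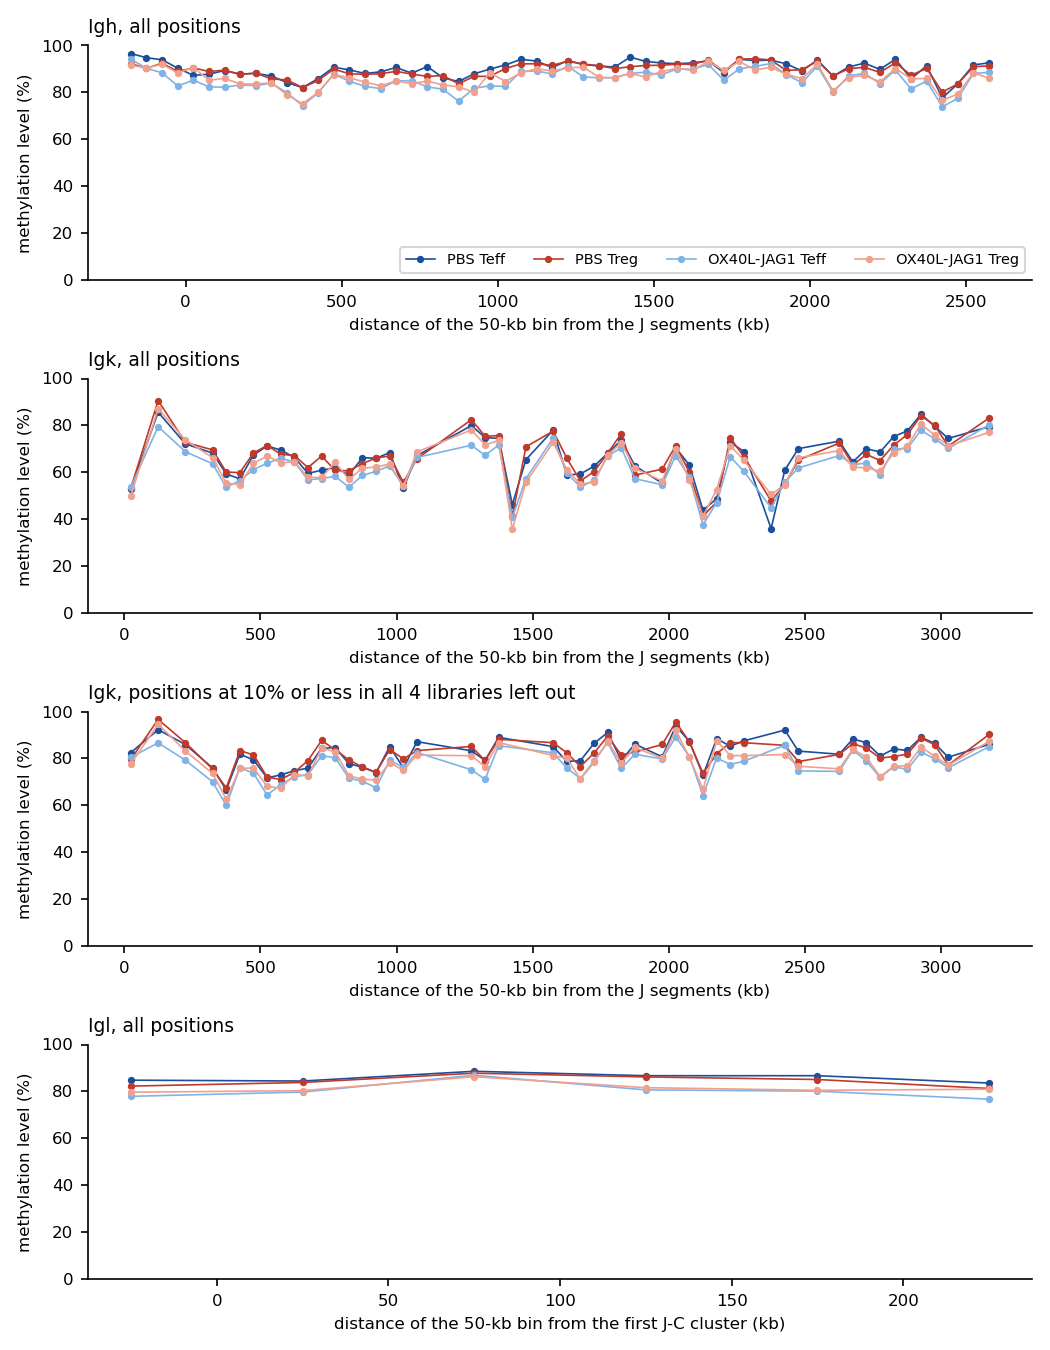
Methylation level (percent, y axis) in bins of 50 kb against the distance of the bin from the J segments (kb, x axis, for Igl from its first J and C cluster), 1 line per library, for Igh, Igk, Igk without the positions low in all 4 libraries, and Igl. Bins of Igh ran from 77.6% to 96.6% in PBS Teff, and bins of Igk from 36.0% to 85.6%, or from 66.5% to 93.9% without the low positions.

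The parts of Igh differed little at this scale. In PBS Teff, PBS Treg, treated Teff and treated Treg, the V part stood at 90.2%, 89.7%, 85.6% and 86.5% over 5008 positions. The D part gave 87.6%, 89.5%, 83.4% and 87.4% over 162 positions, and the part with the C genes 92.3%, 90.3%, 85.8% and 89.8% over 219. At positions shared by each pair, the D part was higher in Treg than in Teff by 1.58 points with PBS (0.264 to 2.87, 263 positions) and by 3.95 points with OX40L-JAG1 (2.32 to 5.56, 211 positions). Without 1 position, chr12:113448619, the PBS difference was 0.694 points with an interval that includes 0 (-0.606 to 1.97), and the treated difference 3.50 points (1.88 to 5.11). That position was left out after its values were seen. The treated difference was not particular to the D part. At positions read in all 4 libraries it was 4.01 points in the part with the C genes (2.31 to 5.69). Between the V and D segments it was 3.73 points (1.29 to 6.14). In the PBS pair these parts gave -1.95 points (-3.31 to -0.633) and -0.0218 points (-1.89 to 1.79). No position of the Igh J part was read in all 4 libraries. In Igk the V part held 2282 of the 2328 positions and so set the level of the locus. The 38 positions between its V and J segments stood at 51.2%, 50.9%, 52.1% and 47.7%, or at 84.4%, 81.0%, 81.9% and 79.5% without the low ones.

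Few positions fell inside V segments themselves. Of 183 Igh V segments, 143 had a listed position and 2 had at least 3 positions read in all libraries, so families cannot be ranked. The 19 such positions inside Igh V segments stood at 52.8%, 56.4%, 43.5% and 53.7%, against 90.3%, 89.7%, 85.7% and 86.6% at the 4989 positions between them. Without positions low in all 4 libraries, 15 inside stood at 67.3%, 73.8%, 62.2% and 64.9%, against 90.4%, 89.8%, 85.8% and 86.6% between. The low bodies were those of Ighv9-4, with no methylated read among 36, 26, 48 and 17, and of Ighv1-23, with 1 of 22, 5 of 22, 1 of 31 and 4 of 26. All 3 positions of Ighv9-4 were low in all 4 libraries, where a differing NOD base cannot be told from an unmethylated cytosine. The 3 positions of the family Ighv5 stood at 88.7%, 95.8%, 92.9% and 80.8%, and the 4 of Ighv8 at 34.2%, 65.5%, 61.0% and 61.5%. Of 162 Igk V segments 77 had a listed position. Their 23 positions read in all libraries stood at 63.3%, 60.8%, 57.4% and 58.5%, against 67.9%, 67.7%, 63.1% and 64.5% between V segments. Without the low positions, 18 inside stood at 78.6%, 74.6%, 73.8% and 73.8%, against 81.0%, 80.7%, 75.1% and 76.7% between.

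Among the constant region genes, the values below use each library's own positions, since few were read in all 4. Ighg1 and Ighg3, for IgG, and Ighe, for IgE, were above 92% in every library. Ighg1 stood at 96.7% in PBS Teff, 92.6% in PBS Treg, 97.6% in treated Teff and 94.3% in treated Treg. Ighg3 gave 94.1%, 94.3%, 93.4% and 93.8%, and Ighe 95.7%, 93.5%, 92.1% and 95.7%. Ighg2b stood at 89.0%, 94.8%, 84.5% and 83.3%, and Ighg2c at 88.4%, 75%, 86.1% and 100% on as few as 5 reads. Igha, which encodes the heavy chain of IgA, stood at 91.7%, 96.5%, 92.8% and 91.2%. Ighd, for IgD, stood at 91.8%, 88.2%, 91.7% and 82.0%. Ighm, for IgM, the C gene next to the J segments, stood at 82.7%, 90.8%, 80.6% and 75.5%. In the kappa locus Igkc gave 97.1% of 34 reads in PBS Teff and 100% of 27 in treated Treg, and no position of it was listed for the other libraries. The lambda C genes ranged from 72.7% (Iglc2) to 100% (Iglc1) in PBS Teff, on 11 to 35 reads.

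The stretch between Ighm and the J segments of Igh, which holds the intronic enhancer, was 1 of the few low stretches of this highly methylated locus. From the end of Ighm to Ighj4 (chr12:113422731-113428513), 42.4% of 347 reads were methylated in PBS Teff (37.3 to 47.6%), and 19.9% of 181 in PBS Treg (14.7 to 26.3%). The level was 36.7% of 294 reads in treated Teff (31.4 to 42.4%) and 12.2% of 82 in treated Treg (6.76 to 21.0%). All 4 libraries lay far below Ighm on one side. Both Treg libraries lay below both Teff libraries, and their intervals did not overlap. These intervals do not allow for reads counted at several positions.

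The dip was deepest in the 3 windows before that of Ighj4. The window at chr12:113427001-113428000 stood at 20.5% of 151 reads in PBS Teff, 7.69% of 91 in PBS Treg, 21.0% of 119 in treated Teff and 10.9% of 55 in treated Treg. The window 2 kb nearer to Ighm, at chr12:113425001-113426000, gave 20%, 4.17%, 27.7% and 9.09% on 22 to 47 reads. The next window on the J side, which holds Ighj4, was back at 100%, 73.7% and 91.2% in the first 3 libraries and at 45.5% of 11 reads in treated Treg. Next to Ighm, at chr12:113423001-113424000, the level was 70.9% of 86 reads, 31.6% of 19, 50% of 44 and 40% of 5. Across the J segments, the window of Ighd4-1, the D gene nearest to them, stood at 23.4% of 47 reads in PBS Teff, 0 of 5 in PBS Treg and 0 of 5 in treated Teff. The 5 positions read in all 4 libraries in the window next to Ighj4 were low in each library, with exceptions to the order of the libraries. At chr12:113427060, 8 of 19 reads were methylated in PBS Teff, 2 of 16 in PBS Treg, 9 of 24 in treated Teff and 1 of 11 in treated Treg. At chr12:113427397 the order differed in the PBS pair, with 0 of 10, 2 of 12, 2 of 14 and 0 of 5. At chr12:113427614, 0 of 12, 0 of 7, 0 of 6 and 0 of 5 reads were methylated.

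**Figure D3:**
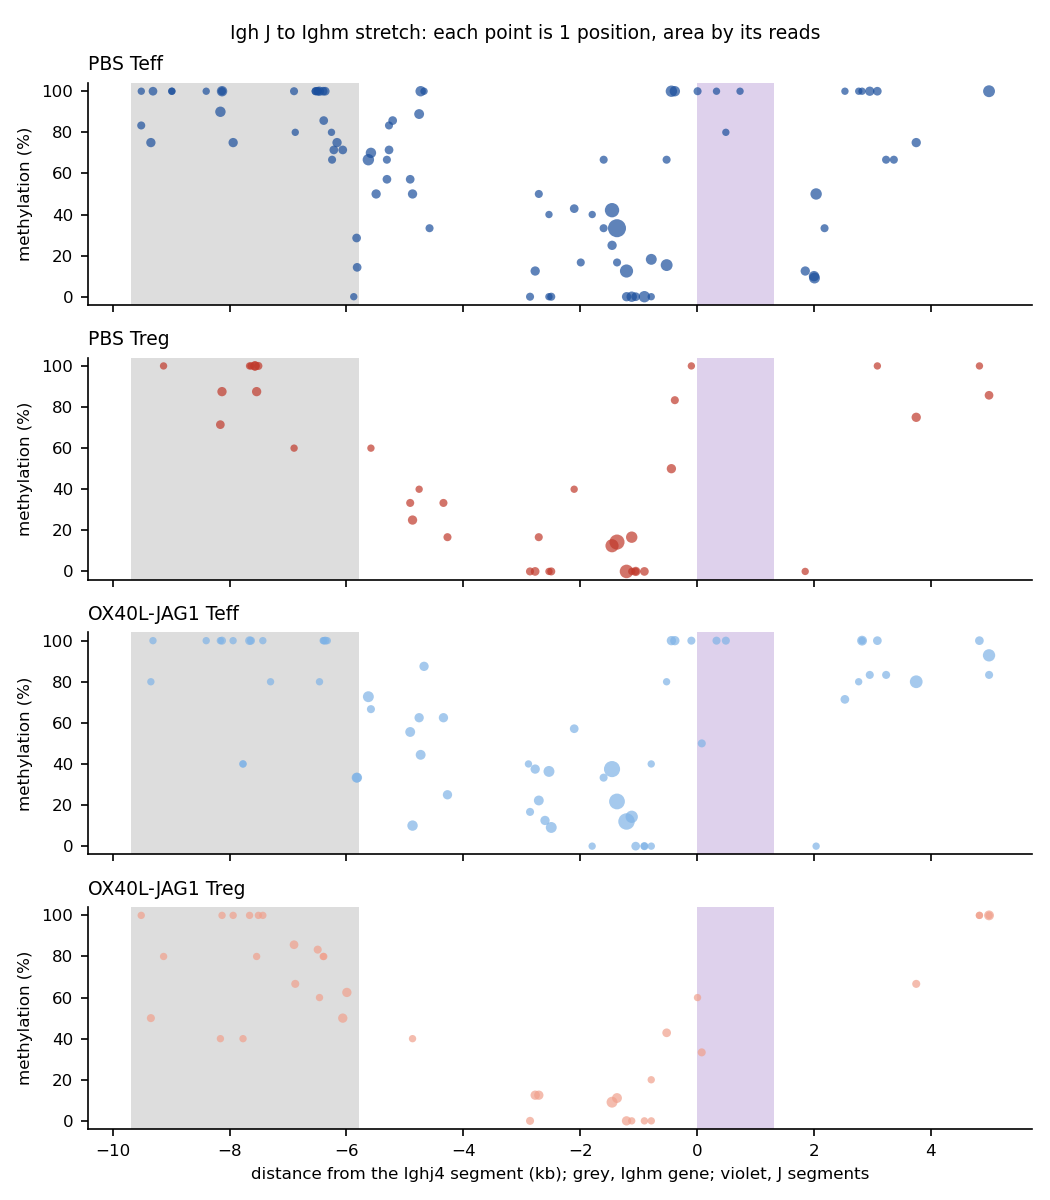
Methylation (percent, y axis) of single positions against the distance from Ighj4 (kb, x axis), 1 panel per library, with point area by reads, Ighm in grey and the J segments in violet. In all 4 libraries most points from 1 to 3 kb before Ighj4 lie below 50%, while points inside Ighm and right beside Ighj4 are mostly higher.

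Different libraries list different positions, so Treg and Teff were also compared at positions both had. In the PBS pair 14 shared positions gave 19.7% of 127 reads in Treg and 41.6% of 161 in Teff, a difference of -21.9 points (Newcombe interval -31.7 to -11.3). In the treated pair 11 shared positions gave 9.33% of 75 reads and 20.7% of 135, a difference of -11.4 points (-20.4 to -0.848). Treg was lower in both pairs, which share no library. The treated interval ends close to 0 and does not allow for reads counted at several positions, so it may be too narrow. No single window of the stretch was called in either pair: the window next to Ighj4 had differences of -12.3 points (PBS pair) and -14.3 points (treated pair), and Fisher's exact test gave p = 0.0348 and 0.0308 before adjustment and 1 after it. OX40L-JAG1 and PBS differed by -6.26 points in Teff (-14.8 to 2.38) over 25 positions and by -1.81 points in Treg (-12.1 to 11.5) over 6, and both intervals include 0.

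The J to C stretch of Igk had a narrower dip, of 1 window with 2 or 3 positions per library. The window at chr6:70725001-70726000, next to Igkc, stood at 27.3% of 22 reads in PBS Teff, 9.09% of 11 in PBS Treg, 10% of 20 in treated Teff and 0 of 10 in treated Treg. The window before it stood at 87.9%, 94.5%, 76.8% and 94.7%, and the window of Igkc after it at 90.2%, 85.7%, 100% and 86.4%. At chr6:70725711, 724 bases from Igkc, 1 of 10, 0 of 6, 0 of 9 and 0 of 5 reads were methylated. No other position of this window was read in all 4 libraries. It belongs to the positions low in all 4, where a differing NOD base cannot be told from an unmethylated cytosine. The 10 to 22 reads behind each library do not allow the libraries to be told apart here. Over the whole stretch the shared positions gave a Treg minus Teff difference of -2.18 points (-11.5 to 7.26) in the PBS pair and -4.96 points (-22.1 to 11.4) in the treated pair. In Igl, windows at the J and C segments had no such dip in PBS Teff, where the lowest, at Iglj3, stood at 57.1% of 35 reads.

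Few other windows of Igh had a low level. The share of low windows over the whole table is not given here, so the loci are compared only with each other. Of the windows with at least 3 positions read in all 4 libraries, 3 of 816 in Igh, 9 of 344 in Igk and 0 of 77 in Igl were at 20% or less over the libraries pooled, and 710, 123 and 52 at 80% or more. The 10 lowest were 7 windows of Igk and 3 of Igh, and 1 of them, at Ighv1-23, overlapped a V segment. The lowest with many reads was chr6:70304001-70305000, 5.88 kb from Igkv8-22, with no methylated read among 165, 113, 123 and 99. All 4 of its positions counted here were low in all 4 libraries. At such positions a differing NOD base and an unmethylated cytosine cannot be told apart. The other low Igk windows held such positions too, some beside methylated ones not read in all 4 libraries. At chr6:69715492, 9 of 10 reads were methylated in PBS Teff. The 3 windows of Igh were the one next to Ighj4, that of the Gm40899 promoter and Ighv1-23, and 1 window 1.94 kb from Ighv1-63. The Ighv1-23 window stood at 5%, 24.3%, 5.77% and 25%, and the last at 5.48%, 15.2%, 8.93% and 6.98%. Those levels of the Ighv1-23 window use positions read in all 4 libraries. At the positions shared by each pair, Treg and Teff gave 21.3% of 61 and 18.5% of 65 reads in the PBS pair, a difference of 2.85 points whose interval includes 0 (-11.1 to 16.9). In the treated pair they gave 25.8% of 62 and 7.35% of 68 reads, a difference of 18.5 points (5.73 to 31.2), and the window was called in neither pair.

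Between Treg and Teff, 2 of 2162 windows tested in the immunoglobulin loci were called in the PBS pair, both higher in Treg and both in Igh. A window is called at an adjusted p under 0.05 by the two-sided Fisher's exact test, with Benjamini-Hochberg adjustment over all windows of the table, and a difference of at least 20 points. Over all windows 0.146% were called in this pair, 0.0494% as higher and 0.0971% as lower in Treg. In the treated pair 2 of 1705 windows were called, again both higher in Treg and both in Igh, against 0.0429% over all windows, 0.0189% as higher and 0.0239% as lower. A read is counted at each position it covers, and how many positions that is was not measured. With the read sums divided by 3, a set factor to allow for this, none of these calls was left in either pair. Over all windows the share called then fell to 0.0107% in the PBS pair and 0.00159% in the treated pair. The counts of members are too small to set the loci apart from the rest of the table. The median difference over the immunoglobulin windows was -0.496 points in the PBS pair and 0.744 in the treated pair, against -0.0675 and 0.349 over all windows.

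The called windows of the PBS pair lay next to each other, between Ighv1-70 and Ighv1-71, and 1 of them was called in both pairs. At chr12:115731001-115732000, 10.2 kb from Ighv1-71, the level was 34.8% of 158 reads in PBS Teff and 64.8% of 125 in PBS Treg. It was 50.9% of 159 in treated Teff and 79.5% of 78 in treated Treg. Both Treg libraries were above both Teff libraries. At the shared positions Treg exceeded Teff by 32.1 points in the PBS pair (20.5 to 42.6, adjusted p = 0.000165 by Fisher's exact test). It exceeded Teff by 30.8 points in the treated pair (17.9 to 41.6, adjusted p = 0.0136 by the exact test). The next window, chr12:115732001-115733000, stood at 33.6%, 60.7%, 26.1% and 51.3%, and was called in the PBS pair (29.97 points, adjusted p = 0.0209 by the exact test). In the treated pair it had too few shared positions to be tested.

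Within these windows 4 of the 6 positions read in all libraries differed most. At chr12:115731999, 1 of 58 reads was methylated in PBS Teff, 16 of 43 in PBS Treg, 7 of 51 in treated Teff and 20 of 30 in treated Treg. The position 26 bases before it gave 16 of 56, 29 of 43, 29 of 57 and 26 of 30. At chr12:115732138 the values were 6 of 52, 14 of 34, 12 of 47 and 13 of 24, and at chr12:115732269 they were 3 of 33, 10 of 22, 5 of 34 and 7 of 15. Treg was higher than Teff at each of the 4 in both pairs. All 4 had more reads than the median Igh position, with 15, 11, 12 and 9 in the same order of libraries. Why they were read more often was not tested. At chr12:115731857 16 of 17, 19 of 19, 26 of 28 and 10 of 12 reads were methylated. The tested windows within 5 kb stood between 75.9% and 100% in Treg and Teff of both pairs.

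The other window higher in Treg after OX40L-JAG1 was chr12:115436001-115437000, between Ighv1-62-1 and Ighv1-62-2. It stood at 59.6% of 114 reads in PBS Teff, 76.8% of 82 in PBS Treg, 41.6% of 89 in treated Teff and 82.1% of 67 in treated Treg. The difference in the treated pair was 40.7 points (25.3 to 53.0, adjusted p = 0.00287 by Fisher's exact test). In the PBS pair it was 19.8 points (6.23 to 32.1) and was not called (adjusted p = 0.667 by Fisher's exact test). At chr12:115436634, 6 of 21, 15 of 22, 5 of 24 and 14 of 16 reads were methylated.

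**Figure D4:**
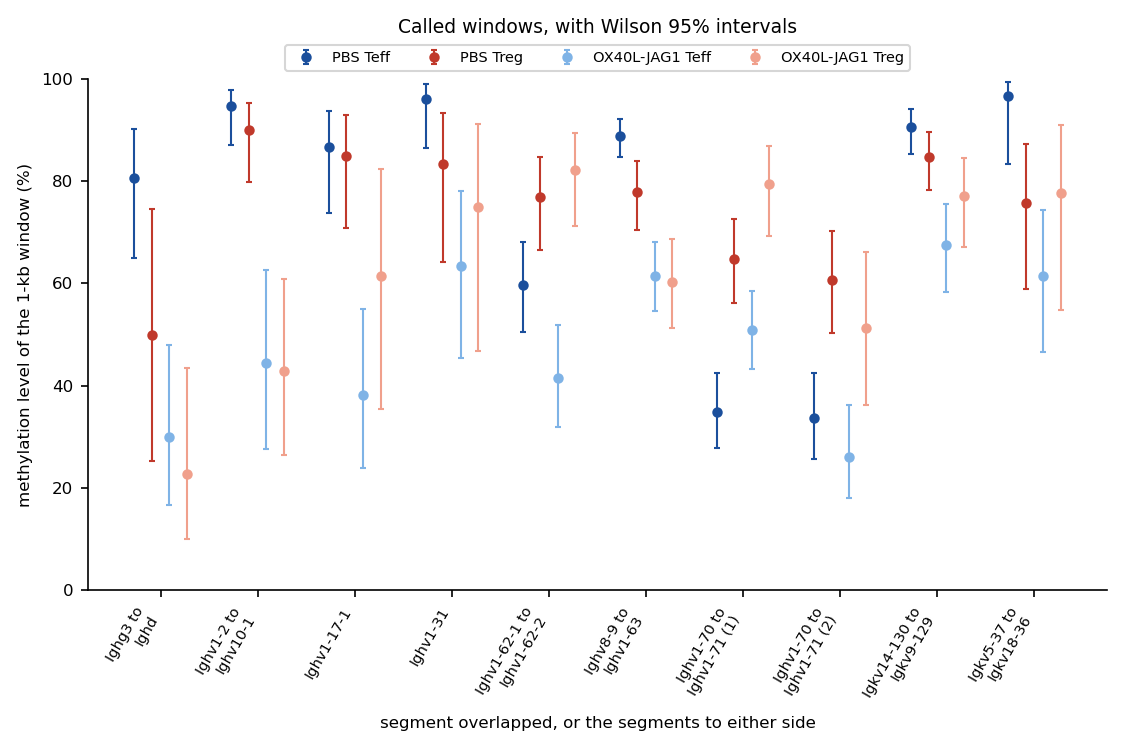
Methylation level (percent, y axis) with Wilson 95% intervals of the 10 called windows (x axis, named by the segment they overlap or the segments to either side) in the 4 libraries. Between Ighv1-70 and Ighv1-71 both Treg libraries lie above both Teff libraries in each window, and in the windows called between treatments the PBS library lies above.

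Between treatments, 6 of 2432 windows were called in Teff, all lower after OX40L-JAG1, against 0.293% of all windows, 0.259% as lower and 0.0347% as higher. Of these 4 were in Igh and 2 in Igk. In Treg 1 of 1505 was called, also lower, against 0.0341% of all windows, 0.0282% as lower and 0.00592% as higher. With the read sums divided by 3, none of these calls was left in Teff or Treg. Over all windows the share called then fell to 0.00381% in Teff and 0 in Treg. Before that division, the shares of members called lay near those of all windows or rested on a single window. The comparisons of treatments use the same 4 libraries as those of cell types. The median difference was -4.32 points in Teff and -2.84 in Treg over the immunoglobulin windows, against -3.21 and -2.38 over all windows. In Teff 1817 of the windows were lower and 574 higher after OX40L-JAG1, and in Treg 1028 were lower and 445 higher.

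The largest of these differences was just outside Ighg3, the constant region gene of IgG3. At chr12:113362001-113363000, 0.769 kb from Ighg3, the level was 80.6% of 36 reads in PBS Teff and 30% of 30 in treated Teff, with 50% of 12 in PBS Treg and 22.7% of 22 in treated Treg. The Teff difference was -50.6 points (-67.0 to -26.8, adjusted p = 0.0138 by Fisher's exact test). The window of the pseudogene segment Ighv1-17-1 stood at 86.7% in PBS Teff, 85% in PBS Treg, 38.2% in treated Teff and 61.5% of 13 reads in treated Treg. It differed by -48.4 points in Teff (-64.4 to -27.3, adjusted p = 0.00474 by the exact test). The window of the V gene Ighv1-31 stood at 96.0%, 83.3%, 63.3% and 75% and differed by -34.3 points in Teff (-52.3 to -16.6, adjusted p = 0.0261 by the exact test).

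The call in Teff with the most reads was chr12:115488001-115489000, 6.63 kb from Ighv1-63. It stood at 88.9% of 279 reads in PBS Teff, 77.9% of 145 in PBS Treg, 61.5% of 195 in treated Teff and 60.3% of 116 in treated Treg. At the shared positions Teff differed by -24.8 points (-32.8 to -16.5, adjusted p = 1.9e-05 by Fisher's exact test). In it, chr12:115488266 was methylated in 57 of 77, 40 of 67, 31 of 80 and 25 of 60 reads, and chr12:115488340 in 56 of 61, 33 of 37, 37 of 56 and 27 of 35. Both had more reads than the median Igh position, with 15, 11, 12 and 9. In Igk, chr6:67803001-67804000, between Igkv14-130 and Igkv9-129, stood at 90.6%, 84.8%, 67.6% and 77.0% and differed by -24.97 points in Teff (-35.1 to -15.0). The other, between Igkv5-37 and Igkv18-36 at chr6:69970001-69971000, stood at 96.7%, 75.8%, 61.4% and 77.8% and differed by -42.1 points (-58.9 to -21.6). In Treg the called window was chr12:114474001-114475000, between Ighv1-2 and Ighv10-1, at 94.7% in PBS Teff, 90% in PBS Treg, 44.4% in treated Teff and 42.9% in treated Treg. It differed by -47.8 points (-65.1 to -26.0, adjusted p = 0.0340 by Fisher's exact test), and both treated libraries were below both PBS libraries.

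Whether the treatment difference itself differed between Treg and Teff was tested in windows read in all 4 libraries, by a Wald test on the log odds. None of 1237 immunoglobulin windows was called, against 0.0044% of all windows (0.00347% with a positive and 0.000933% with a negative difference of differences), and 50 had an unadjusted p under 0.05. None was called either with at least 10 reads per position, at least 5 positions per window, positions of very high depth left out, or read sums divided by 3. The share over all windows was at most 0.0108% under these settings.

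**Figure D5:**
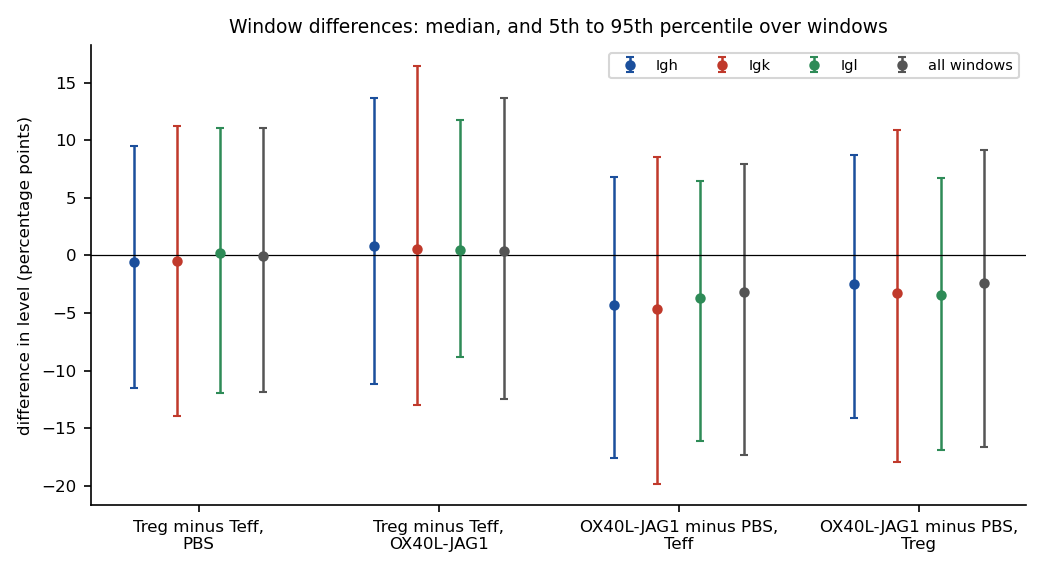
Difference in methylation level (percentage points, y axis) of 1-kb windows in the 4 comparisons (x axis) for Igh, Igk, Igl and all windows of the table, with the point at the median and the bar from the 5th to the 95th percentile over windows. Medians of the 3 loci were between -0.554 and 0.218 in the PBS pair of cell types, and between -4.65 and -3.70 in Teff between treatments.

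Genes of other parts of the pathway were taken from lists of known genes, with levels over the gene body and calls in windows that overlap it. A long gene has more windows in which a call can fall. Over all protein coding genes of RefSeq with a tested window, 3.17% of 20076 had 1 called lower in Treg in the PBS pair and 1.76% had 1 called higher, and 0.634% and 0.572% of 19242 did in the treated pair. Between treatments, 6.19% and 1.6% of 20415 had a window called lower and higher after OX40L-JAG1 in Teff, and 0.584% and 0.175% of 18844 in Treg. Of the 12 genes of the recombination machinery, such as Rag1, Rag2 and Dntt, 0 had a window called lower and 1, Xrcc6, had one called higher in Treg in the PBS pair. None of the 12 was called in the other 3 comparisons. Among 12 genes of immunoglobulin production and class switching, the transcription factor genes Irf4 and Pou2f2 (2 of 12) were each lower in Treg of the PBS pair in 1 window. In Teff 3 had a window lower after OX40L-JAG1, Irf4, Prdm1 and Pou2f1. Counts this small do not set these lists apart from all genes. Of the 6 pre-B receptor genes, 5 were tested in the PBS pair and 4 in each other comparison, and none had a called window.

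The labels were set beside marker genes of the sorted cells and of others. The B cell genes, 9 of 10 with at least 3 positions, had a median gene-body level of 89.8% in PBS Teff, 90% in PBS Treg, 86.0% in treated Teff and 82.4% in treated Treg. None of them had a window called between Treg and Teff, and 1 of the 9 tested, Pax5, had one lower in Teff after OX40L-JAG1. The T cell genes, 7 of 8 with at least 3 positions, stood at medians of 59.9%, 54.6%, 61.5% and 55.2%. In the PBS pair 2 of 8, Cd28 and Cd5, had a window lower in Treg and 1, Cd3e, had one higher, and none of 7 was called in the treated pair. After OX40L-JAG1, Cd3e had a window higher in Teff and none was called in Treg. Of the 6 myeloid genes, Spi1 had 2 windows called higher in Treg in each pair, with 5 genes of the list tested. After OX40L-JAG1, Adgre1 had a window lower in Teff and in Treg, and Itgam had one higher in Teff. Of 4 or 5 genes of CD8 T and NK cells tested in a comparison, none had a called window. All 6 Treg genes, Foxp3 among them, had a window called lower in Treg in the PBS pair, and 5 of 6 in the treated pair. After OX40L-JAG1, 3 of the 6 had a window lower and 1 a window higher in Teff, and 1 had a window lower in Treg. The part of other cells in the levels of the immunoglobulin loci was not tested.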

How the data were processed

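The data are 4 whole-genome bisulfite libraries, 1 per group, trimmed with Trimmomatic and aligned with Bismark to mm10, per the submitters' processing notes. Whether duplicate reads were removed is not given in the sources used here. Deposited by the authors were counts of reads and of methylated reads per cytosine position, with strands on separate lines. The authors also deposited a level headed as a percent that runs from 0 to 1, a fraction equal to methylated reads over reads. The table lists 25374149 positions, with at least 5 reads wherever a library has any, and 208402911, 131555634, 159291553 and 103584075 reads in the Teff and Treg libraries of PBS mice and then those of OX40L-JAG1 mice.

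Reads were summed per 1-kb window over the whole table without the mitochondrial genome. Two-sided Fisher's exact tests and the Wald interaction test, with 0.5 added per cell, were adjusted by Benjamini-Hochberg over all windows and tested on simulated data. Shares have Wilson and differences Newcombe 95% intervals. Named were all called windows, the constant region genes, the J clusters, the windows from J to C and the 10 lowest windows. Promoters printed were picked after their values were seen. The members and lists were chosen with earlier results of these data known. Python 3.11.15, numpy 2.4.6, scipy 1.17.1, pandas 2.3.3 and matplotlib 3.10.9 were used.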

Additional observations from a re-analysis of the deposited data

How the results depend on the processing

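No paired analysis was possible because each group is 1 library and the labels give no pairing. The 11 calls of named windows kept direction and threshold in all 37 values from alternatives other than dividing the read sums by 3. A window that an alternative left untested gave no value. Of the 37, 11 came from leaving out high-depth positions and 11 from centring on the median difference, which change the window differences little. High depth meant more than 218, 173, 188 and 193 reads in Teff and Treg with PBS and then with OX40L-JAG1. No position of a called window had that many, so this setting took none of them out. Only 4 came from a minimum of 10 reads, 6 from at least 5 positions and 5 from positions read in all 4 libraries. Dividing the read sums by 3 ended all 11 calls without turning a direction. The factor 3 was set beforehand, and the number of positions a read covers was not measured. Called windows of the immunoglobulin loci then numbered 0 in each of the 4 comparisons. Over all windows the share called fell as well, to 0.0107% and 0.00159% between Treg and Teff with PBS and with OX40L-JAG1. Between treatments it fell to 0.00381% in Teff and 0 in Treg. With positions read in all 4 libraries, 1 window was called between Treg and Teff with PBS and 0 between treatments in Treg. Over all windows these shares were 0.172% and 0.0461%. With at least 5 positions per window, 1 was called between Treg and Teff with OX40L-JAG1, 3 between treatments in Teff and 0 in Treg. Over all windows these shares were 0.0852%, 0.417% and 0.075%. In Treg a minimum of 10 reads also gave 0 between treatments, against 0.136% of all windows. A minimum of 10 reads moved Igh to 90.4%, 90.1%, 85.8% and 87.0% in Teff and Treg with PBS and then with OX40L-JAG1, and Igk to 68.6%, 68.3%, 64.0% and 65.0%. Igl moved to 83.2% in OX40L-JAG1 Treg. Leaving out positions of very high depth moved Igh to 85.3% in OX40L-JAG1 Teff. Leaving out positions low in all libraries moved Igk to 81.1%, 80.7%, 75.2% and 76.8%. In an alternative chosen after seeing the data, leaving out 1 position moved the Treg minus Teff difference of the Igh D part from 1.58 to 0.694 points with PBS, whose interval then included 0, and from 3.95 to 3.50 points with OX40L-JAG1. The cause of these changes was not tested, and the fewer positions or reads follow from the alternatives themselves.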

Other observations

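Positions were also counted by their difference in both pairs of Treg and Teff, a count chosen after values were seen and not tested. Of 8295 immunoglobulin positions read in all 4 libraries, 25 (0.301%) were at least 30 points higher in Treg in both pairs and 12 (0.145%) at least 30 points lower. Over the whole table the shares were 0.213% and 0.230%. Igh held 20 of the higher and 5 of the lower positions, Igk 5 and 6, and Igl 0 and 1.

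With at least 30 reads in each library, where the median Igh position had 9 to 15, 3 of these positions remained. Of them 2 lie in the called window near Ighv1-71, and the third is 390 bases from the diversity segment Ighd3-2 (chr12:113448619). It was methylated in 19 of 86 reads in PBS Teff, 45 of 55 in PBS Treg, 21 of 55 in OX40L-JAG1 Teff and 37 of 49 in OX40L-JAG1 Treg. Treg was higher by 59.7 points with PBS (44.1 to 70.7) and by 37.3 points with OX40L-JAG1 (18.4 to 52.6). Its 1-kb window was tested in the OX40L-JAG1 pair, where it was not called, and had too few shared positions in the PBS pair.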
